A study of Danio rerio with 8 samples.

Results

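The genes described are 10 apolipoprotein genes of the zebrafish, found by symbol among the 24345 gene identifiers measured. They are apoa1a, apoa2, apoa4b.1, apobb.1, apobb.2, apob, apoc1, apoc2, apoeb and apof. The rule takes these names in any case, and apob was found as APOB, a capitals symbol that does not say which of the zebrafish apoB copies the identifier is. The rule also separates genes high in exposed tissue at the earliest time from genes raised at all later times. That split was read from the values themselves and is a description.

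Apolipoproteins are the proteins that coat lipid particles and let them travel through plasma. ApoB is the large structural protein of the triglyceride-rich particles. ApoA, apoC and apoE are smaller proteins that move between particles, activate or inhibit lipases and bind receptors. In the zebrafish embryo the yolk syncytial layer packs yolk lipid into such particles before the liver and the intestine take over, and it transcribes most of these genes. The apoeb gene is also a marker of macrophages and microglia, and in zebrafish it is transcribed in the epidermis of developing and regenerating fins.

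RNA was sequenced from the distal trunk of Tropical 5D wild-type larvae, cut at a gap in the pigment close to the caudal peduncle. The piece holds the region where, per the labels, an ectopic fin forms, and the series title gives the aryl hydrocarbon receptor as mediator of a fin duplication. Controls stood in 1% DMSO, the solvent, and exposed animals in 12 µM of the polycyclic aromatic hydrocarbon benzo[k]fluoranthene (BkF), with exposure begun at 6 to 8 hours post fertilization (hpf). Sampling at 48, 60, 72 and 96 hpf gives 4 control and 4 BkF conditions.

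Each condition is represented by 1 deposited value per gene, the authors' mean of normalized counts over 4 biological replicates of 50 pooled animals. The values of single replicates were not used here, so a level carries no replicate error, and whether 1 pool carried a high mean was not tested. Sums over all genes ran from 87750209 to 89533865 in control samples and from 76456319 to 78634021 in BkF samples, and read depth is unknown. Log2 ratios are log2((BkF + 1)/(control + 1)), which understates the change of low genes, and a ratio at or beyond 1 in either direction was counted as a difference in size. In the limma test over the 4 time points the error is the spread of the ratio between times, not between animals, so it passes genes with a like ratio at every time. In whole tissue, fewer cells of a type and less RNA per cell cannot be told apart.

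The 10 genes fell into 2 main patterns. In BkF tissue at 48 hpf, 7 of the 10 stood at a log2 ratio of 3 or more, against 0.592% of the 21950 genes tested. Of these 7, 4 (apoa1a, apobb.2, APOB and apoc2) stayed under 1 at every later time, which is the pattern high at 48 hpf only, shown by 1.04% of the genes tested. The pattern raised at all later times held 3 genes (apoeb, apoc1 and apoa2), against 2.23% of the genes tested. The remaining 3 (apoa4b.1, apobb.1 and apof) met neither definition. Because apobb.2, apoa4b.1 and apoc2 reached the level needed to be tested through the BkF value at 48 hpf alone, they entered the tested genes by being high there. These make up 3 of the 7, and apobb.2 and apoc2 make up 2 of the 4, so nothing is read from the counts against those shares.

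**Figure D1:**
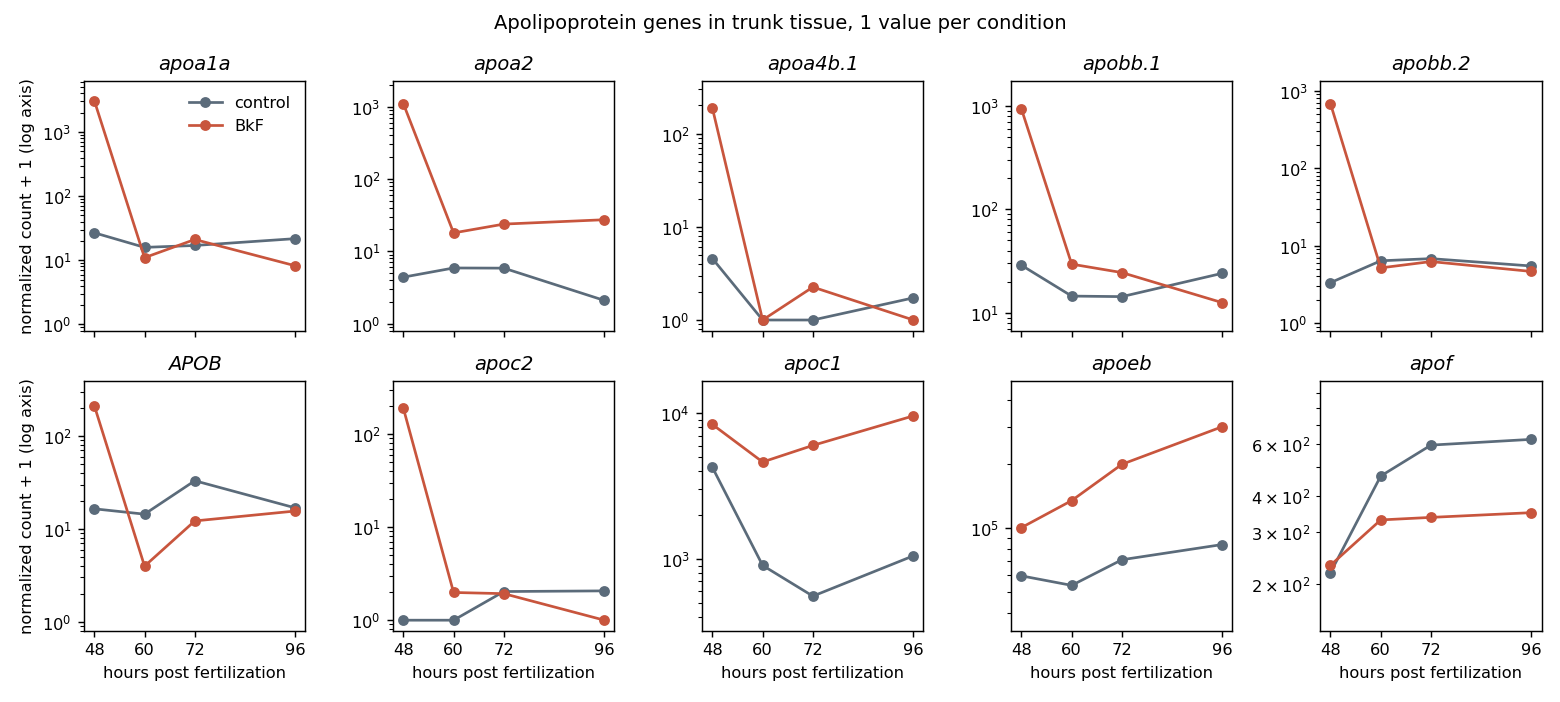
Normalized count plus 1 (log axis, each panel with its own range) against hours post fertilization for the 10 apolipoprotein genes, with 1 point per condition in control and BkF tissue and lines joining the points of a treatment. In 7 panels BkF tissue at 48 hpf stands far above the other 7 samples, whereas apoeb and apoc1 stay higher in BkF tissue at all 4 times and apof does not.

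The apoB genes, which encode the structural protein of very-low-density and intestinal particles, were high in BkF tissue at 48 hpf. The apobb.1 gene (ENSDARG00000022767) read 27.8, 13.5, 13.3 and 23.1 in control tissue in time order and 933, 28.5, 23.5 and 11.5 in BkF tissue. Its tandem copy apobb.2 (ENSDARG00000075016) read 2.33, 5.38, 5.81 and 4.47 in control tissue and 683, 4.17, 5.24 and 3.65 in BkF tissue. APOB (ENSDARG00000042780) read 15.5, 13.4, 32.0 and 15.8 in control tissue and 212, 2.97, 11.2 and 14.6 in BkF tissue. In each of the 3 genes the BkF sample at 48 hpf was above the other 7 samples, while at later times control and BkF values overlapped. It exceeded the highest of the other 7 samples 32.7-fold for apobb.1, 118-fold for apobb.2 and 6.61-fold for APOB. Because Salmon, the counting tool named in the submitters' processing notes, shares reads between similar transcripts, the division between apobb.1 and apobb.2 is uncertain.

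The later ratios of the apoB genes differed from one another. For apobb.1 the log2 ratio went from 5.02 at 48 hpf to 1.03, 0.77 and -0.95 at 60, 72 and 96 hpf. It just exceeded the size that counts at 60 hpf, which kept this gene out of the 48 hpf only pattern. APOB lay below control at 60 and 72 hpf, with log2 ratios of -1.86 and -1.44, and near it at 96 hpf with -0.11. For apobb.2 the later ratios lay between -0.30 and -0.13.

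The apoA genes encode proteins of high-density particles. The apoa1a gene (ENSDARG00000012076), whose mammalian counterpart is the main protein of high-density lipoprotein and accepts cholesterol from cells, read 25.9, 14.9, 16.0 and 20.8 in control tissue and 3097, 9.99, 20.1 and 7.21 in BkF tissue. At 48 hpf the BkF value was 119.7-fold above the highest of the other 7 samples, and from 60 hpf on the treatments overlapped. The apoa4b.1 gene (ENSDARG00000040298), a relative of apoA-IV, which mammals add to particles made in the intestine, read 187 in BkF tissue at 48 hpf. In the other 7 samples it ran from 0 to 3.57, with 0 listed in 4 of them. Its log2 ratio of 1.17 at 72 hpf comes from 1.26 against a listed 0, so it rests on values near 0.

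The apoa2 gene (ENSDARG00000015866), for another protein of high-density particles, combined both patterns. It read 3.39, 4.88, 4.84 and 1.09 in control tissue and 1099.5, 16.9, 22.8 and 26.3 in BkF tissue. All 4 BkF values were above all 4 control values, and the BkF value at 48 hpf was 41.8-fold above the highest of the other 7 samples. After 48 hpf the level was low but still above control, with log2 ratios of 1.61, 2.02 and 3.71. Its control values, at most 4.88, lay under the mean of 10 needed for a test. So apoa2 was tested through its high BkF values, and nothing is read from its call. The effect over the 4 times was 3.83 ± 1.05 on the log2 scale (SE), with adjusted p = 0.0357 in limma, and 2.45 with adjusted p = 0.0259 without the 48 hpf samples. That call was lost with a pseudocount of 10, where the effect was 2.52 with adjusted p = 0.0807 in limma, and under 5 other settings given with the processing limits.

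The apoc2 gene (ENSDARG00000092155), whose product activates lipoprotein lipase, was listed at 0 or near 1 in 7 of the 8 samples. It read 0, 0, 1.03 and 1.07 in control tissue and 189, 0.986, 0.929 and 0 in BkF tissue. The BkF sample at 48 hpf stood alone, and no fold over its control is given because that control is listed at 0.

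Summed over the 7 genes with a log2 ratio of 3 or more at 48 hpf, the level was 78.4, 52.1, 73.0 and 67.1 in control tissue. In BkF tissue the sum was 6401 at 48 hpf and 63.6, 84.9 and 63.3 afterwards. At 60 and 96 hpf the BkF sums lay within the range of the control sums, and at 72 hpf slightly above it. These sums include apoa2, which stayed above control, at 16.9, 22.8 and 26.3 in BkF tissue against at most 4.88 in control tissue. So the later sums mix genes of both patterns. Taking the 10 genes together, the median log2 ratio was 5.19 at 48 hpf and 0.49, 0.54 and -0.51 at 60, 72 and 96 hpf. Over all genes tested the median lay between -0.01 and 0.01 at each time.

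Other genes were also high in this sample. Of all genes tested, 228 (1.04%) had the pattern high at 48 hpf only, and 130 (0.592%) had a log2 ratio of 3 or more there. With limits chosen after the values were seen, 13 genes reached at least 100 in BkF tissue at 48 hpf and at least 8 times the highest other sample, and 6 of the 13 were apolipoprotein genes described here. Among the other 7 samples the same limits were met by at most 4 genes in any sample, none of them an apolipoprotein gene described here. The 7 other genes included 3 liver plasma proteins, fetub (fetuin B, a protease inhibitor) at 306, serpina1 (an antitrypsin) at 104 and c9 (a terminal complement component) at 100.4, each at or below 6.40 elsewhere. The limits leave out lower genes of the same shape, such as PLA2G12B at 80.0 and FABP1 at 75.6, each under 1 elsewhere. So the 6 of 13 depends on the limits.

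**Figure D2:**
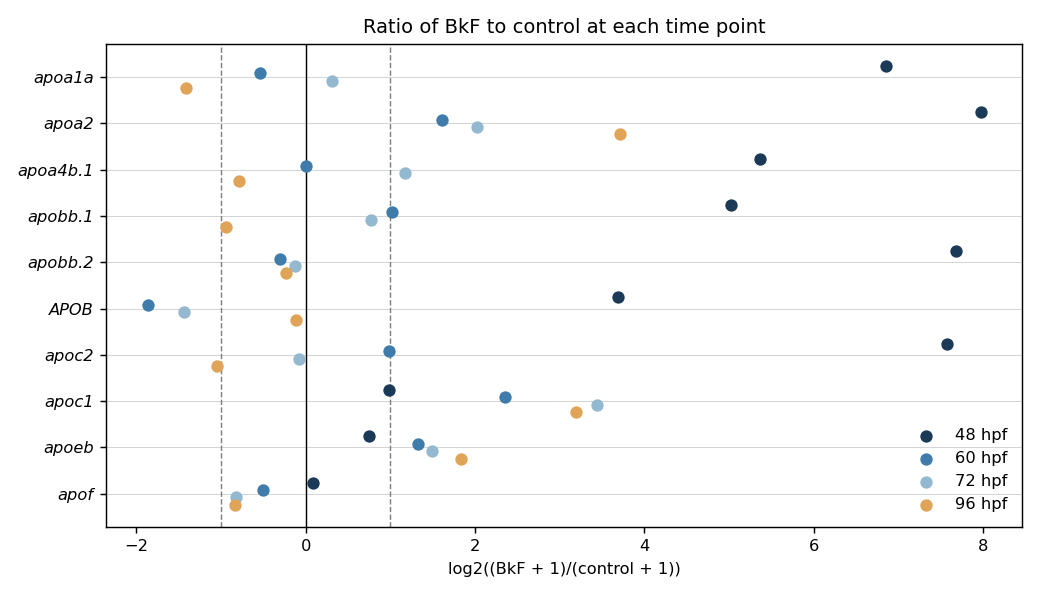
Log2 ratio of BkF to control (x axis, normalized counts plus 1) for each of the 10 genes, with 1 point per time point and dashed lines at the ratios of -1 and 1 that count. Dark points for 48 hpf lie at 3.69 or more for 7 genes and at 0.98, 0.75 and 0.08 for apoc1, apoeb and apof, whose later points move away from 0.

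The other main pattern was carried by apoeb and apoc1. The apoeb gene (ENSDARG00000040295) encodes apolipoprotein E, the ligand through which cells take up lipoprotein remnants. In time order control tissue read 59613, 53779.8, 70969 and 83691, and BkF tissue 100475, 134594, 199317 and 299594. Every BkF value was above every control value. In BkF tissue the level was higher at each successive time, while control tissue dipped at 60 hpf. BkF was 1.69-fold, 2.50-fold, 2.81-fold and 3.58-fold above control. Normalized counts of apoeb made up 0.0601% to 0.0954% of the sum over all genes in control samples and 0.128%, 0.172%, 0.261% and 0.383% in BkF samples.

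Over the 4 times apoeb rose by 1.35 ± 0.17 on the log2 scale (SE), with adjusted p = 0.00314 in limma. It was one of 3 apolipoprotein genes to pass in the upward direction, beside apoc1 and apoa2, and none passed downward. Of these 3, apoa2 was tested only through its high BkF values. Of all genes tested, 16.5% passed upward and 17.4% downward. The log2 ratio of apoeb changed by 0.50 ± 0.10 per 24 h (SE), and this trend did not pass after adjustment (adjusted p = 0.120, limma). The level itself, with 1 slope for both treatments, changed by 0.54 ± 0.11 per 24 h (SE), with adjusted p = 0.0630 in limma.

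The apoc1 gene (ENSDARG00000092170) encodes a small apolipoprotein that slows lipase action and remnant uptake in mammals. In control tissue it read 4248 at 48 hpf and 900.4, 554 and 1048 at 60, 72 and 96 hpf. In BkF tissue it read 8375, 4624, 6012 and 9589. At each time BkF was above control, and the BkF values exceeded the highest control value, that of 48 hpf, at all 4 times. The gap was smallest at 48 hpf, with a log2 ratio of 0.98, and reached 2.36, 3.44 and 3.19 later. The effect was 2.49 ± 0.39 on the log2 scale (SE), with adjusted p = 0.00601 in limma, and 2.996 with adjusted p = 0.00175 without the 48 hpf samples.

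The apof gene (ENSDARG00000090980), whose human counterpart inhibits lipid transfer between particles, had no rise in BkF tissue at 48 hpf. It read 217, 466, 595 and 623 in control tissue and 230.3, 329.6, 336 and 349 in BkF tissue. The treatments were close at 48 hpf, and from 60 hpf on control tissue was higher. Log2 ratios were 0.08, -0.50, -0.82 and -0.83, none of them reaching the size that counts. The effect over 4 times was -0.52 ± 0.17 (SE) and did not pass (adjusted p = 0.0599, limma). Without the 48 hpf samples it was -0.72 and passed (adjusted p = 0.0103, limma).

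The test over 4 times gave no call to the genes high at 48 hpf alone. Their effects were 1.31 for apoa1a (adjusted p = 0.484), 1.75 for apobb.2 (0.377), 0.07 for APOB (0.960) and 1.86 for apoc2 (0.361), all in limma. The apoa4b.1 effect was 1.44 (adjusted p = 0.342) and the apobb.1 effect 1.47 (0.255), also in limma. All 10 genes reached the mean of 10 needed to be tested, the 3 named above through the BkF sample at 48 hpf alone, as did 63 of all genes tested. For a straight-line change of the ratio with time limma called 0 of the 10 after adjustment, and 0.0% of all genes upward and 0.0137% downward. At an unadjusted p under 0.05 there were 6 of the 10 and 16.6% of all genes, in either direction. For a straight-line change of the level with time limma also called 0 of the 10 after adjustment, and 0.00456% of all genes upward and 0.0% downward. At an unadjusted p under 0.05 there were 2 of the 10 and 29.2% of all genes.

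Counted at single times by size, the 10 genes at a log2 ratio of 1 or more numbered 7, 4, 4 and 3 at 48, 60, 72 and 96 hpf. Among all genes tested the shares were 3.64%, 4.2%, 4.88% and 5.29%. The 7 at 48 hpf include apobb.2, apoa4b.1 and apoc2, tested through that BkF value alone. Each of the 4 counts includes apoa2, tested through its high BkF values. So nothing is read from these counts against those shares. At -1 or less there were 0, 1, 1 and 2 of the 10, against 4.12%, 5.0%, 6.27% and 8.7%. The genes at -1 or less were APOB at 60 and 72 hpf and apoa1a and apoc2 at 96 hpf, where apoc2 is near 0 in both treatments. Close to a ratio of 1, apobb.1 at 60 hpf (1.03) lay just over it, and apoc2 at 60 hpf (0.99) and apoc1 at 48 hpf (0.98) just under it.

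Both patterns occurred among close neighbours in the genome. In RefSeq's gene order on the assembly GRCz12tu, which is not the build used for these data, 5 of the 10 genes lie in 1 run of 11 genes that also holds apoa4b.2, apoa4b.3 and apoc4. In this order apoa4b.1 opens the run, apoeb and apoc1 stand next to each other, and apoa2 and apoc2 close it. Of the 8 apolipoprotein genes in the run 6 were found by symbol among the measured identifiers. Some identifiers have no symbol, so whether apoa4b.3 and apoc4 were measured is not known. The neighbour apoa4b.2 read 70.4 in BkF tissue at 48 hpf and 0 to 2.47 elsewhere, and its mean was too low for a test. So within this run apoa4b.1, apoa4b.2 and apoc2 stood far above their other 7 samples in BkF tissue at 48 hpf. By the definition only apoc2 of them is high at 48 hpf only. The log2 ratios at 72 hpf, 1.17 for apoa4b.1 and 1.04 for apoa4b.2, rest on values near 0. In the same run apoeb and apoc1 stayed up at later times, and apoa2 did both.

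Among other apolipoprotein genes CLU met the definition of raised at all later times, with log2 ratios of 1.38, 1.70 and 1.09. The apom gene met that of high at 48 hpf only, with 1.09 there and at most 0.77 later. Its level was too low for a test, at 15.3 in BkF and 6.64 in control tissue at 48 hpf. The rest met neither definition. Of 8 other apolipoprotein genes measured, 6 were tested, of which 1 passed upward and 2 downward. Their median effect was -0.06 against -0.01 over all genes tested. For this and each list below, the shares of all genes tested are 16.5% upward and 17.4% downward. CLU, clusterin or apolipoprotein J, a secreted chaperone, read 8764, 8182, 7331 and 11522 in control tissue and 15769, 21244, 23810.0 and 24577 in BkF tissue. Its treatments did not overlap, and the effect was 1.25 with adjusted p = 0.00193 in limma. The apoda.1 gene, for the lipocalin apolipoprotein D, fell by 1.99 on the log2 scale (adjusted p = 0.0160, limma), from 729 to 72.7 at 48 hpf. The effect of apol1 was -0.22 (adjusted p = 0.0247, limma), and APOO, for a mitochondrial protein, had an effect of 0.06 (adjusted p = 0.648, limma).

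The 2 copies of the ABCA1 gene, which exports cholesterol to apolipoproteins, were higher with apoeb. The transporter gene abca1b read 12505 to 12889 in control tissue and 23644, 23820, 27609 and 33331.0 in BkF tissue, an effect of 1.09 with adjusted p = 0.000802 in limma. ABCA1, the symbol given to the other copy, read 3275 to 5205 in control tissue and 5042, 6041, 8453 and 10220 in BkF tissue, an effect of 0.92 with adjusted p = 0.00159 in limma. For abca1b the treatments did not overlap, whereas for ABCA1 the BkF value at 48 hpf lay under the control value at 96 hpf. Of 33 measured receptors, lipases and exchangers of lipoproteins 32 were tested, among which these 2 had the highest effects. In that list 7 passed upward and 9 downward, against 16.5% and 17.4% of all genes tested, with a median effect of -0.02. ABCG1, another cholesterol exporter in the list, had an effect of -0.26 (adjusted p = 0.558, limma) and read at most 22.7. LRP1B (ENSDARG00000004789), a receptor of the LDL receptor family, fell by 1.37 (adjusted p = 0.0429, limma). LPL, lipoprotein lipase itself, fell by 0.82 (adjusted p = 0.00651, limma).

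**Figure D3:**
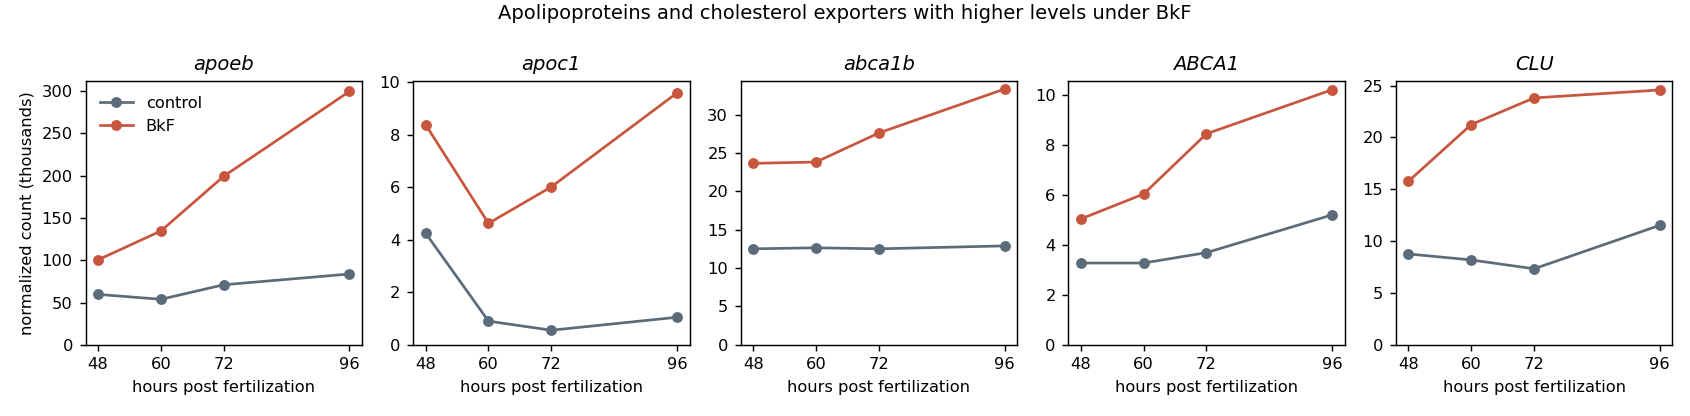
Normalized counts divided by 1000 (linear axis from 0, each panel with its own range) against hours post fertilization for apoeb, apoc1, the cholesterol exporters abca1b and ABCA1, and CLU, with 1 point per condition. At each time the BkF point lies above the control point, from 1.69-fold at 48 hpf to 3.58-fold at 96 hpf for apoeb.

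The machinery that loads lipid onto apoB was tested through a list of 15 measured genes, 14 of them tested. Of these 1 passed upward and 2 downward, against 16.5% and 17.4% of all genes tested, with a median effect of 0.10. MTTP, the transfer protein that lipidates apoB, stood at 92.6 in control and 103.6 in BkF tissue at 48 hpf, where the apoB genes were high, and its effect was -0.40 (adjusted p = 0.288, limma). Of the 15, 3 reached a log2 ratio of 1 or more at 48 hpf, against 3.64% of all genes tested. Among these, FABP1 was too low for a test, and PLA2G12B was tested through the BkF value at 48 hpf alone. So nothing is read from the count against that share. PLA2G12B, needed for normal particle size in zebrafish, was listed at 0 in all control samples and read 80.0 in BkF tissue at 48 hpf, and FABP1, a fatty acid carrier of liver, intestine and yolk layer, read 75.6 there and 0 in the other 7 samples. FABP2, the intestinal fatty acid carrier, was higher by 1.57 over the 4 times (adjusted p = 0.0184, limma), from 53.2 to 335 at 48 hpf. DGAT1, which makes triglyceride, fell by 0.45 (adjusted p = 0.00271, limma).

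Of 25 measured regulators of apolipoprotein genes 18 were tested, of which 2 passed upward and 4 downward, with a median effect of -0.15. These counts are close to the shares of all genes tested, 16.5% upward and 17.4% downward. HNF4A, the liver and gut nuclear receptor, rose by 0.71 (adjusted p = 0.0217, limma), and CEBPB, a factor of liver and myeloid cells, by 0.82 (adjusted p = 0.0121, limma). The lipid sensor pparaa fell by 1.22 (adjusted p = 0.000520, limma), and RXRA (ENSDARG00000057737), the partner of many nuclear receptors, fell by 0.73 (adjusted p = 0.00148, limma).

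Markers of the tissues that make plasma apolipoproteins were set beside the signal at 48 hpf. Among 38 measured liver plasma protein genes, 20 had a log2 ratio of 1 or more at 48 hpf, and 8, 7 and 2 at the later times, with medians of 1.22, 0.04, 0.06 and -0.17. The shares of all genes tested were 3.64%, 4.2%, 4.88% and 5.29%, the count at 96 hpf being close to its share. At -1 or less there were 2, 5, 7 and 8 of the 38, against 4.12%, 5.0%, 6.27% and 8.7%. The 38 include genes too low for a test, whose ratios rest on low values. Their summed level ran from 11138.5 to 12518 in control tissue and was 20770.4, 19110.3, 15034 and 12336 in BkF tissue. Much of that difference came from f5, coagulation factor V, which read 1374 in control and 8113 in BkF tissue at 48 hpf. Without f5 the sum at 48 hpf was 10261 in control and 12657 in BkF tissue, and the ranges over all times overlapped, at 10261 to 12292 and 10864 to 14458. Over the 4 times 28 of the 38 were tested, with a median effect of 0.35. Of these, 6 passed upward and 2 downward, against 16.5% and 17.4% of all genes tested. Without the 48 hpf samples 21 were tested. Genes such as c9, fetub and serpina1, at most 6.40 elsewhere, were tested through the BkF value at 48 hpf alone. Among the upward calls, kng1 read at most 9.54 in control tissue and was tested through its BkF values. So nothing is read from the median effect, the upward count or the effect of c9. The 20 genes at 48 hpf include c9, fetub, serpina1, kng1 and genes too low for a test. For that reason nothing is read from this count against its share, or from the median ratio of 1.22. The defining liver gene fabp10a, a bile acid carrier, did not take part, with 12.3 in control and 3.54 in BkF tissue at 48 hpf and at most 15.2 in any sample. The highest effect in the list was that of f5 at 2.81 (adjusted p = 0.00423, limma), with c9 at 2.15 (adjusted p = 0.120, limma). The lowest were serpina1l at -0.73 (adjusted p = 0.437, limma) and hp, haptoglobin, at -0.70 (adjusted p = 0.00962, limma). The part of liver or yolk layer RNA in the values at 48 hpf was not tested.

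Vitellogenins are the yolk proteins that the mother's liver makes. Of 8 listed, the 4 found by symbol were low in every sample, at most 22.2 for any of the 4. As genes of the mother's liver they are no measure of yolk layer RNA in the larva, which was not tested. The 4 measured summed to 29.1 to 47.1 in control tissue and 16.0 to 42.1 in BkF tissue. At 48 hpf 0 of 4 had a log2 ratio of 1 or more, close to the 3.64% of all genes tested. Their median there was -0.90. Only vtg8 was tested, with an effect of 0.10 (adjusted p = 0.882, limma). Among 18 measured genes of intestine and pancreas, 12 were tested, with a median effect of -0.15. Of these, 2 passed upward and 6 downward, against 16.5% and 17.4% of all genes tested. The highest in this list were gcga, for glucagon, at 4.59 (adjusted p = 0.000360, limma) and FABP2. The lowest were GCG at -1.57 (adjusted p = 0.0109, limma) and the protease prss59.2 at -1.38 (adjusted p = 0.0337, limma). In control tissue gcga read at most 9.90, and in BkF tissue GCG read at most 7.92, under the mean of 10 needed for a test. So gcga was tested through its BkF values and GCG through its control values. Both are in the counts above, and nothing is read from their calls.

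**Figure D4:**
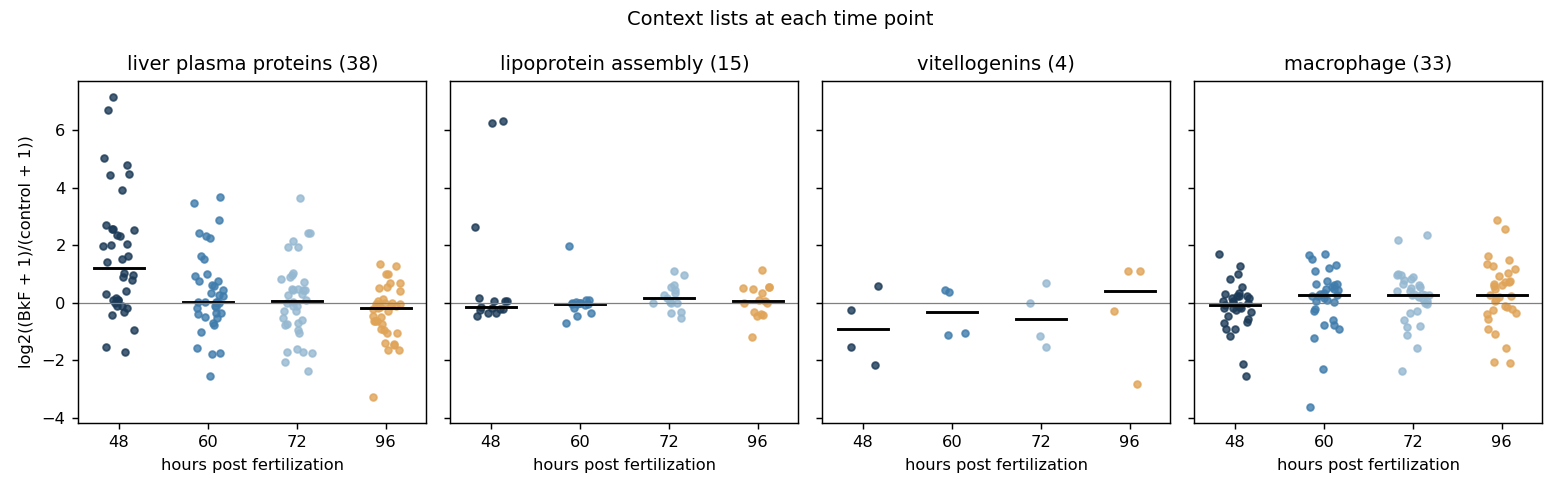
Log2 ratio of BkF to control for each measured gene of 4 lists (number of genes in the panel title) at the 4 time points, with black bars at the medians and horizontal scatter for legibility. The liver plasma protein genes have a median of 1.22 at 48 hpf and between -0.17 and 0.06 later, while the medians of the macrophage genes lie between -0.07 and 0.28. The liver list holds genes near 0 outside BkF tissue at 48 hpf, so nothing is read from its median there.

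Macrophage genes, which the apoeb pattern is read beside, rose in part. Of 33 measured and 31 tested, 9 passed upward and 3 downward, against 16.5% and 17.4% of all genes tested. Their median effect was 0.20. Their summed level was 10908 to 12240.5 in control tissue and 11227, 13735, 15132 and 18508 in BkF tissue. The pore-forming defence gene of macrophages, MPEG1, was present as a pair of identifiers. One (ENSDARG00000043093) had an effect of -0.0045 (adjusted p = 0.953, limma), and the other (ENSDARG00000055290) rose by 0.78 (adjusted p = 0.0200, limma). Highest were ctss2.1, a lysosomal cathepsin, at 1.97 (adjusted p = 0.00215, limma) and SLC7A7, an amino acid transporter of macrophages, at 1.90 (adjusted p = 0.00611, limma). SLC7A7 read 177 to 195 in control tissue and 352, 554, 860 and 1453 in BkF tissue, higher at each successive time as apoeb was. Lowest were cd4-1, for a T cell and macrophage coreceptor, at -2.67 (adjusted p = 0.00333, limma) and the chemokine ccl34b.1 at -0.95 (adjusted p = 0.00351, limma).

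Of 21 measured genes of lipid-handling macrophages, 20 were tested, with a median effect of 0.08. Of these, 7 passed upward and 4 downward, against 16.5% and 17.4% of all genes tested. This list shares abca1b, ABCA1, LPL, CD36, LIPA, NPC1 and both NPC2 identifiers with the receptors and lipases above, and PLIN2 with the lipid loading list. So the upward calls of abca1b, ABCA1 and NPC1 and the downward call of LPL are counted in both lists. The highest effects in the list were those of abca1b and ABCA1, given above. The lowest was that of GPNMB, a lysosomal membrane protein, which fell by 2.22 (adjusted p = 0.00529, limma). The neutrophil list of 10 measured genes had 9 tested, 6 upward and none downward, against 16.5% and 17.4% of all genes tested. It had a median effect of 0.60 and sums of 7310 to 15255 in control and 21500 to 63087 in BkF tissue. Its highest genes were mmp13a at 3.53 (adjusted p = 0.00302, limma) and MMP9 at 1.92 (adjusted p = 0.00503, limma), secreted proteases that other cells make too. They carried much of the sums. Without both, the sum in time order was 6595, 3679, 2192 and 2617 in control tissue and 5496, 6555, 6266 and 5582 in BkF tissue. It was thus below control at 48 hpf and above control at 60, 72 and 96 hpf. The neutrophil gene lyz, for lysozyme, had an effect of -0.16 and did not pass (adjusted p = 0.762, limma). The part of macrophage or neutrophil RNA in the apoeb and apoc1 values was not tested.

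Fin fold and epidermis genes, a list kept because apoeb is transcribed in fin epidermis, mostly went the other way. Of 16 measured and tested, 10 passed downward and 2 upward, against 17.4% and 16.5% of all genes tested. The median effect was -0.50. The skin keratin gene krt91 fell by 3.31 (adjusted p = 7.84e-05, limma) and cyt1l, another keratin gene, by 2.61 (adjusted p = 0.00325, limma). The fin signal gene fgf24 rose by 0.70 (adjusted p = 0.000506, limma) and HMCN1, a matrix protein of the fin fold, by 0.88 (adjusted p = 0.00508, limma). List sums ran from 182638 to 527643 for skeletal muscle over the 8 samples and from 3139140 to 10817800 for fin fold and epidermis. The skeletal muscle list had 19 of 20 measured genes tested, with a median effect of 0.12. It had 4 upward and 3 downward, close to the shares of all genes tested, 16.5% and 17.4%. Its highest were pvalb1 at 1.09 (adjusted p = 0.00139, limma) and tpma at 0.74 (adjusted p = 0.0227, limma), and its lowest ENSDARG00000013752, a low-level identifier of the 6 named TNNI2, at -1.54 (adjusted p = 0.0164, limma) and MYOD1 at -0.71 (adjusted p = 0.0210, limma). That low-level identifier read at most 24.4, and at most 5.36 in BkF tissue, so it was tested through its control values. The TNNI2 identifier ENSDARG00000029069 read 6066 to 17168 over the 8 samples, with an effect of 0.52 (adjusted p = 0.0585, limma).

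The genes whose pattern was most like that of apoeb were sought among 14818 genes with a symbol and a mean of 50 or more, by Pearson correlation of log2(value + 1) over the 8 samples. The samples share treatment and time, so these values only describe likeness. First came tgfb1a, for a growth factor, with r = 0.996, then PHF14, for a chromatin protein, with r = 0.995 and ipo4, for a nuclear import receptor, with r = 0.994. Their changes were smaller than that of apoeb, with effects of 0.54, 0.18 and 0.56. For the mean profile of the 4 genes high at 48 hpf only, the nearest were zgc:194621 (r = 0.887), CACNA2D1, a calcium channel subunit (r = 0.879), and amy2al1, an amylase (r = 0.879). CACNA2D1 read 227 in BkF tissue at 48 hpf and at most 55.4 elsewhere, whereas zgc:194621 read 182 against at most 112 and amy2al1 121 against at most 84.2.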

How the data were processed

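Per the labels' protocols, stranded mRNA libraries were read as 100 bp single-end reads, and 32 libraries formed 8 conditions of 4 replicates. The submitters' processing notes name the genome build Zv9 and the tools Salmon, DESeq2, FastQC and Trimmomatic, whose versions those notes do not hold. The deposited values (unit: signal) are, as the labels say, the means that the authors took of normalized counts, 1 per condition, so no count test could be run and depth is unknown. Values enter as log2(value + 1), genes with a mean of 10 or more were tested, and limma 3.58.1 in R 4.3.3 was fitted with time point as a block and an intensity trend, two-sided, with Benjamini-Hochberg adjustment over all 21950 genes and a threshold of 0.05. Slopes on hpf, with treatment or its interaction, used the same table. The fits were first tested on simulated data. Symbols came from a name table (18028 of 24345 identifiers). Of the list entries, 199 matched by their own symbol, 53 by a capitals symbol that lacks the paralog letter, and 73 found no identifier. The members and lists were chosen with earlier results of these data known. All members are named, and in each list the 2 highest and 2 lowest effects. LPL, FABP1, fabp10a, apoa4b.2, apom, MPEG1, fetub, serpina1 and kng1 were added after their values were seen. Some genes that this rule names are not reported here. Sequences and coordinates were not used here. Alternatives were a pseudocount of 10, other filters, 2 other normalizations, no trend, a robust prior, no time block, other fold sizes and leaving out each time. Figures were drawn with matplotlib 3.10.9.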

Additional observations from a re-analysis of the deposited data

Results flagged for a closer look

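In 3 genes the log2 ratio of BkF to control was 1 or more at 48 hpf and -1 or less at a later time. The ratio of apoa1a was 6.85 at 48 hpf and -1.41 at 96 hpf, with 0.31 between them at 72 hpf. For APOB it was 3.69 at 48 hpf and -1.86 at 60 hpf. For apoc2 it was 7.57 at 48 hpf, on the log2(value + 1) scale with a control listed at 0, and -1.05 at 96 hpf. The latter comes from 1.07 in control tissue and a listed 0 in BkF tissue, so it rests on values near 0. A straight-line change of the ratio with time did not pass for any of them, with adjusted p = 0.272 for apoa1a, 0.642 for APOB and 0.264 for apoc2 in limma. The 48 hpf sample against the later ones was not tested as such. Negative ratios of smaller size followed the high 48 hpf value in apobb.1 (-0.95 at 96 hpf), apoa4b.1 (-0.79 at 96 hpf) and apobb.2 (-0.30 at 60 hpf). For apoa4b.1 control tissue read 0.728 and BkF tissue a listed 0, and for apobb.2 they read 5.38 and 4.17, so both ratios rest on low values.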

How the results depend on the processing

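Of the genes tested, 3624 passed upward and 3810 downward. With the same total in every sample these were 7954 and 2150, that scaling having moved the median ratio by 0.16 to 0.20 on the log2 scale; without 60 hpf they were 1683 and 1856, and without 72 hpf 1835 and 1965. The calls for apoeb and apoc1 held under every alternative run, with adjusted p at most 0.0216 and 0.0288 in limma and effects of 1.19 to 1.596 and 2.18 to 2.996. The call for apoa2 was lost in limma with a pseudocount of 10 (adjusted p = 0.0807), no intensity trend (0.0712), no time block (0.0562), and without 60, 72 or 96 hpf (0.0530, 0.0690 and 0.0661). Without 48 hpf, 1 of the 10 genes passed downward (apof), the effects of apoa1a and APOB reversed to -0.54 and -1.14, and the slopes on time of APOB and apoc1 reversed to 0.58 and 0.48 per 24 h, while apobb.2, apoa4b.1 and apoc2 fell under the filter and gave no value. For slopes on time, 1 gene upward and 0 downward became 0 upward without the intensity trend and without 48 or 60 hpf, 23 and 2 without 72 hpf, and 2079 and 1865 without 96 hpf, when 1 of the 10 genes passed upward (apof, 1.00 per 24 h, adjusted p = 0.0397 in limma). For the change of the ratio with time, 0 upward and 3 downward became 1 and 6 with no filter, and 0 downward with no trend. At 4-fold in place of 2-fold, 1 gene was raised at all later times, 1 was higher at 60 hpf and 2 at 72 hpf, and with a pseudocount of 10, 2 were higher at 60 hpf. Of the alternative values for single genes in the fits, 273 kept direction and side of the threshold, 4 reversed, 6 lost a call and 2 gained one. Without 48 hpf, an alternative chosen after seeing the data, 21 liver plasma protein genes were tested, of which 4 passed upward and 4 downward. Of 31 macrophage genes tested there, 11 passed upward and 2 downward. The shares of all genes passing without 48 hpf are not given here, so nothing is read from these counts. The list sums without f5 and without MMP9 and mmp13a were also chosen after seeing the data. The cause of these shifts was not tested.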
